A study of Mus musculus with 9 samples.

Results

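Mesenchymal lineage transcription factors switch on gene programmes of connective tissue, muscle wall and body cavity lining in the embryo, and each is active in its own part of the mesoderm. Prrx1 and Prrx2 are paired-related homeobox factors of limb and facial mesenchyme. Foxc1 and Foxc2 are forkhead factors of the paraxial mesoderm and of vessels, and Foxf1 and Foxf2 are forkhead factors of the mesenchyme around gut, lung and liver, where hedgehog signals from the epithelium are known to switch them on. Foxd1 marks stromal progenitors of the kidney, Tbx18 is a T-box factor of the epicardium and ureter wall, Wt1 is a zinc finger factor of mesothelium, epicardium and podocytes, and Tcf21 is a basic helix-loop-helix factor of visceral mesenchyme. Epithelial tumour cells that take on mesenchymal features are best known for the Snai, Zeb and Twist factors, which are not covered here. The 10 lineage factors were taken by gene symbol from a table of 55276 genes, and all 10 had a row in it.

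The cells were PPTR cells, a mouse intrahepatic cholangiocarcinoma line from a liver cancer of a mouse model with Prom1CreERT2, a Cre driven by Prom1, a Rosa-ZsGreen reporter and conditional tumour suppressor alleles. Every group carried these alleles. Vcam1 ctrl cells, labelled WT, were set beside Vcam1 KO1 and Vcam1 KO2 cells, which were each grown from 1 cell after CRISPR editing with a guide in Vcam1. Each of the 3 groups had 3 libraries, 9 in all, from cells grown in DMEM with serum, and mRNA was read as estimated counts per gene. Each knockout group is a single clone, so the loss of Vcam1 and whatever else set that clone apart cannot be told apart, and p values measure only the spread between libraries of a culture at different passages, which may be technical.

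Library totals lay between 53415907 and 125223073 counts, and 3 counts, taken as the limit of detection, came to between 0.0239 and 0.0554 CPM, that is, counts relative to library size. Vcam1 itself stood at 266 ± 56.5 CPM (SD, n = 3) in Vcam1 ctrl, 107 ± 19.1 CPM in Vcam1 KO1 and 100 ± 17.9 CPM in Vcam1 KO2 cells (n = 3 in each group). These are RNA levels and do not measure protein. The authors report that both clones had lost Vcam1 expression by qRT-PCR and flow cytometry. Vcam1 KO1 replicate 3 stood further from the other libraries of its clone (chi-square per degree of freedom 240 and 275) than those did from each other (36.0). The same held for Vcam1 KO2 replicate 3 (166 and 113 against 35.8), and the control libraries lay 84.4 to 169 apart. Markers of bile duct epithelium, the type of the tumour, were mostly lost from the clones, with Krt19 at 2292 CPM in Vcam1 ctrl cells and at 0.0596 and 0.149 CPM in Vcam1 KO1 and Vcam1 KO2 cells, and 7 of 10 biliary markers fell and 1, Spp1, rose in each clone. Levels below are CPM after TMM scaling, in the order of replicates 1, 2 and 3. Genes were tested by quasi-likelihood in edgeR, and p values were adjusted by Benjamini-Hochberg over the 17672 genes that passed a filter on low counts and held against a threshold of 0.05. The biliary markers Epcam, Krt18, Krt19 and Cldn4 passed this filter only through the Vcam1 ctrl libraries, so they could only be called lower in the clones. The comparisons of each clone with Vcam1 ctrl share the 3 control libraries.

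The clones shared a rise of Prrx1, Prrx2, Foxc1 and Foxf1, and parted over Foxc2, Foxf2, Tbx18 and Wt1. Foxd1 and Tcf21 were next to undetected in all groups and did not pass the filter. Of the 8 factors tested, 4 rose and 1 fell in Vcam1 KO1 cells, where 29.9% of all tested genes rose and 30.0% fell. In Vcam1 KO2 cells 7 of 8 rose and 0 fell, against 25.3% of all tested genes higher and 26.1% lower. With both clones pooled, 5 of 8 rose and 0 fell, against 21.7% higher and 21.2% lower. In the last 2 comparisons 0 factors were also lower at an unadjusted p under 0.05 in edgeR, and 0 with limma-voom or DESeq2. The median log2 fold change over the 8 factors was 1.77 in Vcam1 KO1, 3.12 in Vcam1 KO2 and 3.18 in the pooled comparison, beside 0.022, 0.0044 and 0.068 over all tested genes. Between the clones 6 of 8 factors were lower in Vcam1 KO1 than in Vcam1 KO2 cells and 0 were higher, against 18.5% of all tested genes lower and 20.2% higher. At an unadjusted p under 0.05 in edgeR, 1 factor, Foxc1, was higher in Vcam1 KO1, as it was with limma-voom and DESeq2 after adjustment. The filter removed Foxd1 and Tcf21, which had at most 5 counts in any library, so these counts do not describe all 10. Tbx18, with at most 7 counts in any Vcam1 ctrl or Vcam1 KO1 library, passed the filter only through the Vcam1 KO2 libraries. Once tested, it could only be called higher in Vcam1 KO2. Its call in the 7 of 8, the pooled 5 of 8 and the 6 of 8 between the clones therefore follows from the filter. So does its weight in the medians of these comparisons. Without Vcam1 KO1 replicate 3, 5 factors passed the threshold in Vcam1 KO1, 6 in the pooled comparison and 6 between the clones. Without Vcam1 KO2 replicate 3 the counts were 7 in Vcam1 KO2, 5 in the pooled comparison and 6 between the clones.

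**Figure D1:**
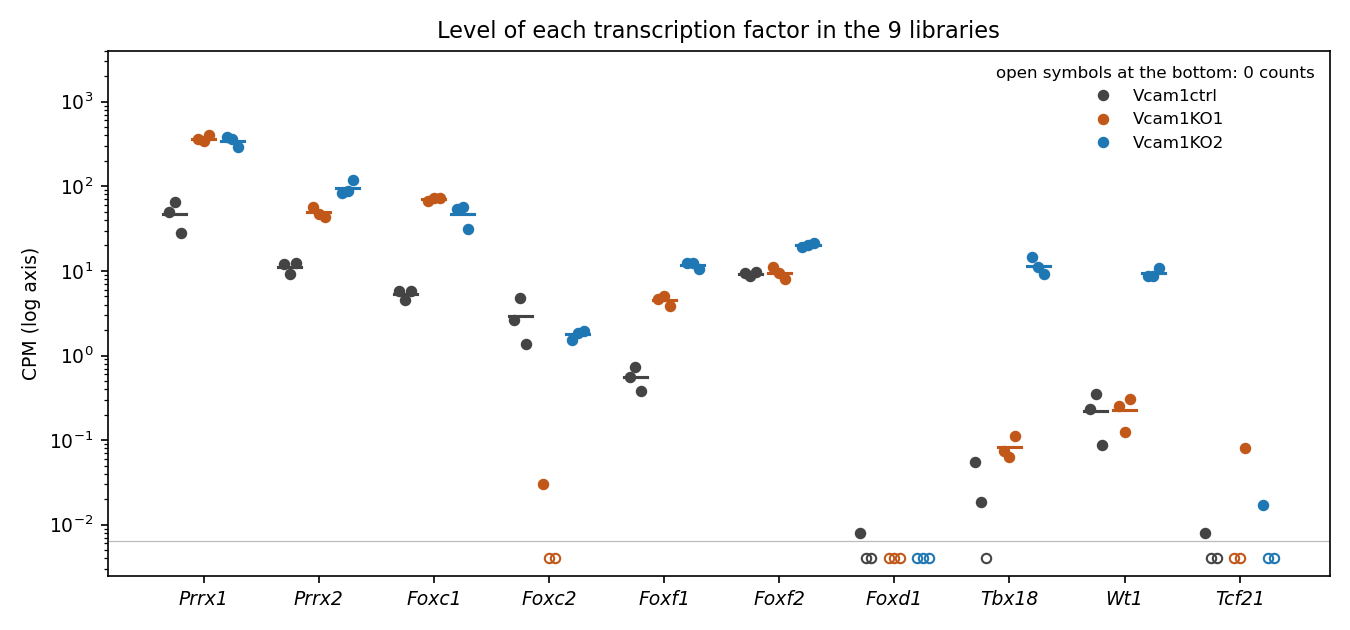
CPM of the 10 transcription factors on a log axis, 1 point per library (n = 3 per group), with a bar at the group mean where every library has counts and open symbols at the bottom for libraries with 0 counts. Prrx1, Prrx2, Foxc1 and Foxf1 lay above the Vcam1 ctrl libraries in both clones, while Tbx18 and Wt1 stood between 8.72 and 14.4 CPM in the Vcam1 KO2 libraries and at or below 0.351 CPM in the others and Foxc2 was nearly lost from Vcam1 KO1.

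Sequences upstream of 3 start sites are shown because Foxc1 rose in both clones while Foxf2 and Tbx18 rose past the threshold in Vcam1 KO2 but not in Vcam1 KO1, and because 2 of the stretches are crossed by a non-coding transcript that was counted separately. They are RefSeq promoter windows of GRCm38.p6, cut to the bases before the factor's own first exon and written 5′ to 3′ on its strand. Capitals mark GGGCGG and CCAAT on either strand, the letters of the GC box and of the CCAAT box.
Foxc1, chr13:31806396-31806632, plus strand: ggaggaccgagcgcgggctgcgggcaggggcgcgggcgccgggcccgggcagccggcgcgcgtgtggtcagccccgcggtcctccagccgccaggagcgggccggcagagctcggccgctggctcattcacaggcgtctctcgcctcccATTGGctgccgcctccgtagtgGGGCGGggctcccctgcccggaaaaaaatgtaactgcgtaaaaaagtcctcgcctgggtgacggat
Foxf2, chr13:31625566-31625815, plus strand: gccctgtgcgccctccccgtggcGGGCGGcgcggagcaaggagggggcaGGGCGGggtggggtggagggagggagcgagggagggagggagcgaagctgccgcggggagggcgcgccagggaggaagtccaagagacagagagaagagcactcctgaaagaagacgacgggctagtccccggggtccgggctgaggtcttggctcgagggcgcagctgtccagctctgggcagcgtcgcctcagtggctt
Tbx18, chr9:87731261-87731510, minus strand: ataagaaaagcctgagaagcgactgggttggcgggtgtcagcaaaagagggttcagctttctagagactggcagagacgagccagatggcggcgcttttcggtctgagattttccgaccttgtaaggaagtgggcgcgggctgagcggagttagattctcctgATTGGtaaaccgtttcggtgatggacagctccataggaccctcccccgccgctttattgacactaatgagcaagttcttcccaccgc

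The 237 bases before Foxc1 held 29 CpG, the 250 before Foxf2 held 21 and the 250 before Tbx18 held 15. RefSeq windows of 300 bases were found for 7 of the 10 factors, all but Foxc2, Foxf1 and Wt1. Observed over expected CpG in these windows was 0.943 for Foxc1, 0.787 for Foxf2, 0.756 for Prrx2 and 0.755 for Tbx18, all above the upper quartile of 0.750 over 32851 windows. It was 0.624 for Foxd1, 0.378 for Tcf21 and 0.360 for Prrx1, beside a median of 0.384. Tbx18, near the detection limit in Vcam1 ctrl and Vcam1 KO1 cells, thus had more CpG in its window than Prrx1, the factor with the most counts. GGGCGG was in the windows of Prrx2, Foxc1, Foxf2 and Foxd1 (35.7% of all windows), and CCAAT in those of Foxc1, Foxd1 and Tbx18 (37.4% of all windows). TATAAA (13.6% of windows), the forkhead motif GTAAACA (3.65%), the E-box CAGGTG (20.2%) and the Gli motif GACCACCCA (0.253%) were searched on both strands and these letters were in 0 of the 7 windows.

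Prrx1 lies on chromosome 1 at 163245119 to 163313710, minus strand (GRCm38, as for all positions below). Its level was 49.1, 64.8 and 28.3 CPM in Vcam1 ctrl, 358, 339 and 404 CPM in Vcam1 KO1 and 384, 360 and 293 CPM in Vcam1 KO2 libraries. Every clone library lay above every control library, and the clones overlapped. The means were 47.4 ± 18.3, 367 ± 33.5 and 346 ± 47.0 CPM (SD, n = 3 each). The log2 fold change against Vcam1 ctrl was 2.95 in Vcam1 KO1 (standard error, SE, 0.28, adjusted p = 1.62e-05 in edgeR) and 2.87 in Vcam1 KO2 (SE 0.27, adjusted p = 2.41e-05). The difference between the clones was 0.09 on the log2 scale (SE 0.26, adjusted p = 0.811), within the spread between libraries.

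Prrx2, on chromosome 2 at 30834972 to 30881251, plus strand, stood at 12.0, 9.19 and 12.5 CPM in Vcam1 ctrl libraries. It stood at 57.2, 46.5 and 43.9 CPM in Vcam1 KO1 and at 82.6, 87.0 and 119 CPM in Vcam1 KO2 libraries. The 3 groups did not overlap, with Vcam1 KO2 the highest. The log2 fold change was 2.13 in Vcam1 KO1 (SE 0.19, adjusted p = 1.07e-05 in edgeR) and 3.10 in Vcam1 KO2 (SE 0.19, adjusted p = 1.8e-06), and the clones differed by -0.97 for Vcam1 KO1 against Vcam1 KO2 (SE 0.18, adjusted p = 0.00283).

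Foxc1 and Foxc2, both intronless in the annotation, moved apart. Foxc1, on chromosome 13 at 31806633 to 31812476, plus strand, was at 5.86, 4.58 and 5.75 CPM in Vcam1 ctrl, 66.2, 72.3 and 73.5 CPM in Vcam1 KO1 and 54.4, 57.3 and 31.1 CPM in Vcam1 KO2 libraries. Both clones were above all control libraries, and the Vcam1 KO1 libraries lay above the Vcam1 KO2 libraries, of which replicate 3 was the lowest. The log2 fold change was 3.71 in Vcam1 KO1 (SE 0.24, adjusted p = 1.48e-06 in edgeR) and 3.14 in Vcam1 KO2 (SE 0.23, adjusted p = 4.71e-06). The difference between the clones, 0.57, did not pass the threshold (adjusted p = 0.058 in edgeR), but did with limma-voom (adjusted p = 0.0377) and DESeq2 (adjusted p = 0.0448).

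Foxc2, on chromosome 8 at 121116171 to 121118895, plus strand, had 334, 259 and 109 counts in Vcam1 ctrl libraries, or 2.66, 4.78 and 1.38 CPM. Vcam1 KO1 libraries held 2, 0 and 0 counts, and Vcam1 KO2 libraries held 89, 130 and 132 counts, or 1.52, 1.84 and 1.95 CPM. Foxc2 was thus close to undetected in Vcam1 KO1, where its summed level was 0.00327 of that in Vcam1 ctrl (95% exact interval 0.000396 to 0.0119, counting error only), and overlapped between Vcam1 KO2 and Vcam1 ctrl. Foxc2 fell in Vcam1 KO1 (adjusted p = 2.92e-05 in edgeR), while in Vcam1 KO2 the log2 fold change of -0.72 (SE 0.50, adjusted p = 0.253) did not pass the threshold. The difference between the clones passed it (adjusted p = 2e-04). Without Vcam1 KO1 replicate 1, which held both counts, Foxc2 had 0 counts in that clone and the fall still passed (adjusted p = 1.4e-04).

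Foxf1, on chromosome 8 at 121084386 to 121088144, plus strand, rose in both clones and more in Vcam1 KO2. It stood at 0.550, 0.738 and 0.379 CPM in Vcam1 ctrl, 4.61, 5.06 and 3.88 CPM in Vcam1 KO1 and 12.5, 12.4 and 10.4 CPM in Vcam1 KO2 libraries. The groups did not overlap. The log2 fold change was 3.03 in Vcam1 KO1 (SE 0.26, adjusted p = 8.86e-06 in edgeR) and 4.42 in Vcam1 KO2 (SE 0.27, adjusted p = 1.62e-06), and the clones differed by -1.38 (adjusted p = 0.00178).

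Foxf2, on chromosome 13 at 31625816 to 31631403, plus strand, rose in Vcam1 KO2 cells. Its level was 9.33, 8.67 and 9.75 CPM in Vcam1 ctrl, 11.1, 9.44 and 7.95 CPM in Vcam1 KO1 and 19.3, 20.2 and 21.3 CPM in Vcam1 KO2 libraries. Vcam1 ctrl and Vcam1 KO1 overlapped and all Vcam1 KO2 libraries lay above them. The log2 fold change was 0.04 in Vcam1 KO1 (SE 0.15, adjusted p = 0.838 in edgeR) and 1.13 in Vcam1 KO2 (SE 0.15, adjusted p = 2.19e-04), and the clones differed by -1.09 (adjusted p = 6.59e-04).

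Tbx18, on chromosome 9 at 87702800 to 87731260, minus strand, was seen in strength in Vcam1 KO2 cells. It had 7, 1 and 0 counts in Vcam1 ctrl, 5, 6 and 7 counts in Vcam1 KO1 and 843, 785 and 621 counts in Vcam1 KO2 libraries. The latter came to 14.4, 11.1 and 9.18 CPM, while every other library lay at or below 0.112 CPM. Summed over libraries, Tbx18 was 370-fold higher in Vcam1 KO2 than in Vcam1 ctrl (95% exact interval 187 to 858, counting error only), and the rise passed the test (log2 fold change 8.54, adjusted p = 2.68e-06 in edgeR). Without Vcam1 ctrl replicate 1, which held 7 of the 8 control counts, the log2 fold change was 10.26 in Vcam1 KO2 (adjusted p = 9.55e-06). In Vcam1 KO1 the log2 fold change of 1.41 did not pass it (SE 0.68, adjusted p = 0.102), and without that control library it did (3.13, adjusted p = 0.0133). In the pooled comparison Tbx18 passed at 7.62 on the log2 scale (SE 2.49, adjusted p = 0.0331 in edgeR), a value set by Vcam1 KO2, and did not pass when any 1 of the control libraries was left out (log2 fold change 9.24, 7.46 and 7.10, adjusted p = 0.0839, 0.106 and 0.104 without replicates 1, 2 and 3), without Vcam1 KO2 replicate 1 (adjusted p = 0.0505) or with limma-voom (adjusted p = 0.241).

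Wt1, on chromosome 2 at 105126529 to 105173616, plus strand, went the same way. It had 29, 19 and 7 counts in Vcam1 ctrl, 17, 12 and 19 counts in Vcam1 KO1 and 509, 624 and 725 counts in Vcam1 KO2 libraries. The latter came to 8.72, 8.82 and 10.7 CPM, with every other library at or below 0.351 CPM. The log2 fold change was 5.42 in Vcam1 KO2 (SE 0.48, adjusted p = 1.45e-05 in edgeR) and 0.03 in Vcam1 KO1 (SE 0.47, adjusted p = 0.960), and the clones differed by -5.39 (adjusted p = 5.37e-05). The pooled value of 4.44 (SE 1.69) missed the threshold (adjusted p = 0.0592), and passed it without Vcam1 KO1 replicate 1, 2 or 3 (adjusted p = 0.0438, 0.0341 and 0.0382).

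Foxd1 and Tcf21 remained at or near the limit of detection. Foxd1, on chromosome 13 at 98354242 to 98359305, had 1 count in Vcam1 ctrl replicate 1 and 0 in the other 8 libraries. Tcf21, on chromosome 10 at 22817281 to 22820174, had 1, 0 and 0 counts in Vcam1 ctrl, 0, 0 and 5 in Vcam1 KO1 and 1, 0 and 0 in Vcam1 KO2 libraries. No difference between groups was detectable at this depth for either factor.

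**Figure D2:**
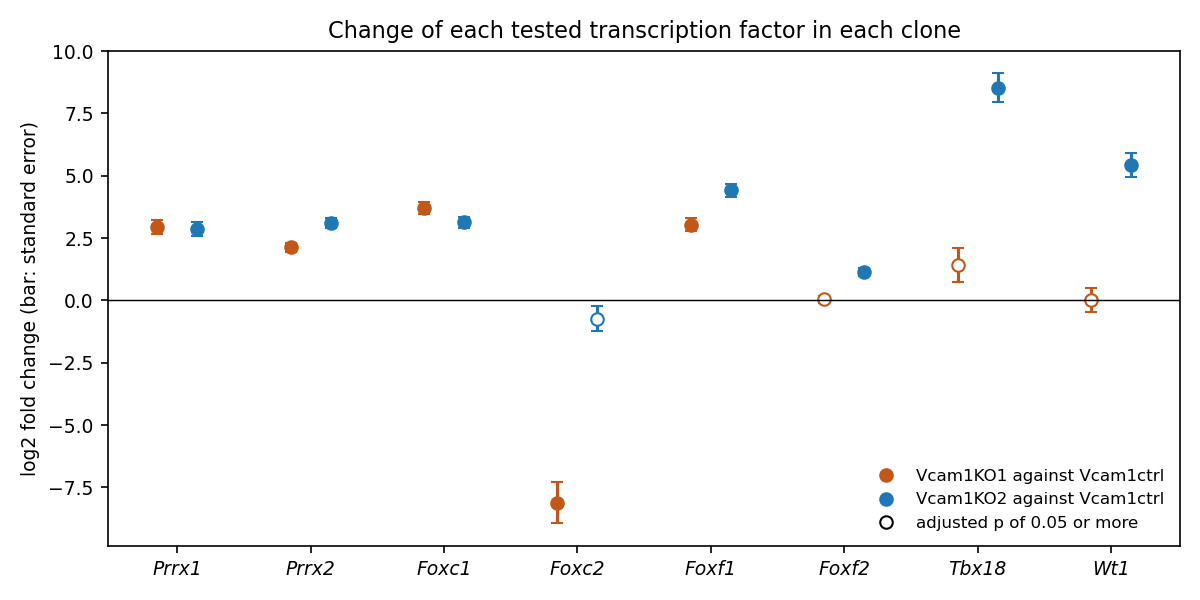
Log2 fold change of the 8 tested factors in each clone against Vcam1 ctrl (edgeR, 3 libraries per group), with bars for the standard error and open symbols for an adjusted p of 0.05 or more. Prrx1 lay at 2.95 and 2.87 in the 2 clones, while Tbx18 lay at 1.41 and 8.54 and Foxc2 at -8.10 and -0.72, the value of -8.10 resting on 2 counts in Vcam1 KO1.

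Ranked by CPM per kb of exon, with the exons of all annotated transcripts of a gene merged, the order changed between groups. The merged length was 11.07 kb for Prrx1 (5 transcripts) and 1.96 kb for Prrx2 (4 transcripts). Where the transcripts present are shorter than this length, the level per kb is understated. Ranks of different genes, such as Prrx1 and Prrx2, are therefore approximate. In Vcam1 ctrl cells Prrx2 (5.72 ± 0.91, SD, n = 3), Prrx1 (4.28 ± 1.65) and Foxf2 (3.92 ± 0.23 CPM per kb) were the highest and overlapped between neighbours, followed by Foxc2 (1.08 ± 0.63) and Foxc1 (0.924 ± 0.122), which also overlapped, and by Foxf1 (0.230 ± 0.074 CPM per kb). Vcam1 KO1 cells had Prrx1 (33.2 ± 3.03), Prrx2 (25.1 ± 3.58), Foxc1 (12.1 ± 0.67), Foxf2 (4.02 ± 0.68) and Foxf1 (1.87 ± 0.25 CPM per kb) in this order with no overlap, and the other 5 factors at or below 0.0368 CPM per kb. In Vcam1 KO2 cells Prrx2 came first (49.1 ± 10.1), then Prrx1 (31.2 ± 4.25), then Foxf2 (8.56 ± 0.41) and Foxc1 (8.14 ± 2.46), which overlapped, then Foxf1 (4.88 ± 0.49), Tbx18 (2.45 ± 0.56), Wt1 (1.52 ± 0.18) and Foxc2 (0.650 ± 0.081 CPM per kb). Foxc2 held rank 4 in Vcam1 ctrl, rank 9 in Vcam1 KO1 and rank 8 in Vcam1 KO2 cells.

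The balance within the paralog pairs was read from counts in the same library, which does not depend on scaling between libraries. Foxf1 made up 3.75 to 7.84% of the counts of Foxf1 and Foxf2 in Vcam1 ctrl, 29.3 to 34.9% in Vcam1 KO1 and 32.9 to 39.3% in Vcam1 KO2 libraries. The log2 ratio of Foxf1 to Foxf2 was 3.17 higher in the 6 clone libraries than in the 3 control libraries (exact permutation test, two-sided, p = 0.0119, the smallest that 84 arrangements allow; 0.0357 after Benjamini-Hochberg adjustment over 3 pairs), higher in 6 of 6. Foxc1 made up 48.9 to 80.7% of the counts of Foxc1 and Foxc2 in Vcam1 ctrl, 99.95 to 100% in Vcam1 KO1 and 94.1 to 97.3% in Vcam1 KO2 libraries (exact permutation p = 0.0238, adjusted 0.0357). The log2 ratio of Prrx1 to Prrx2 was 2.01, 2.90 and 1.86 in Vcam1 ctrl, Vcam1 KO1 and Vcam1 KO2 cells and did not pass the test (exact permutation p = 0.464). With libraries of 2 clones in the knockout group, these p values treat the clones as replicates of each other.

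**Figure D3:**
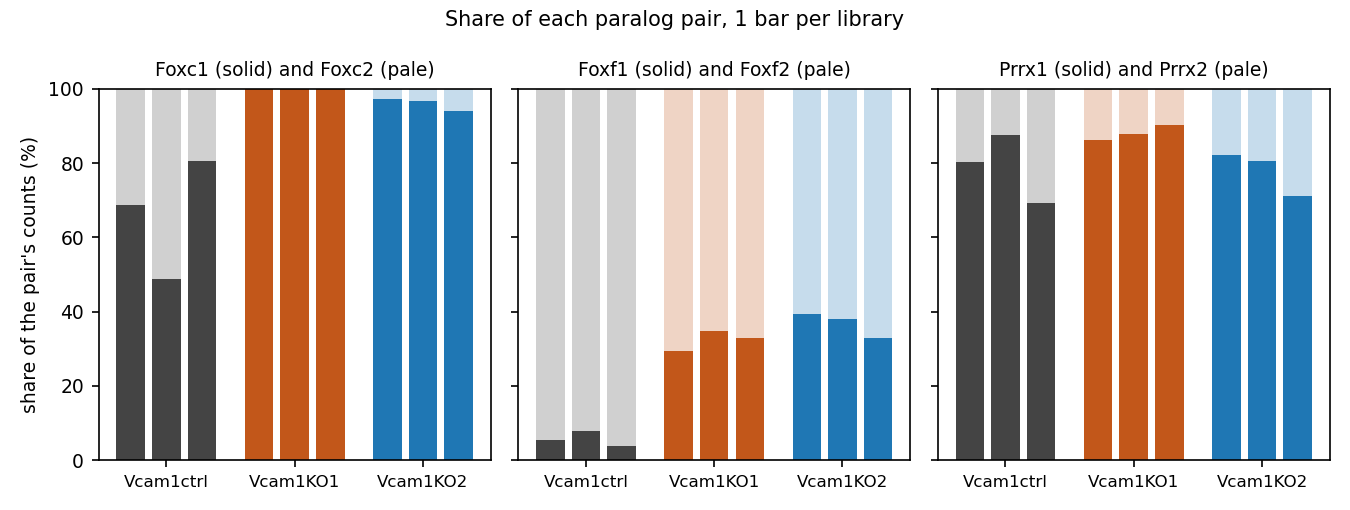
Share of each paralog pair's counts in percent, 1 bar per library, with the first factor solid and the other pale. Foxf1 rose from 3.75 to 7.84% of its pair in Vcam1 ctrl to between 29.3 and 39.3% in the clones, and Foxc1 took nearly the whole of its pair in both.

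All forkhead factors of the list but Foxd1 sit in 2 clusters of the genome. Foxf1 and Foxc2 lie 28.03 kb apart on chromosome 8 and went opposite ways in Vcam1 KO1 cells. Mthfsd, which lies between them, was at 30.2, 32.6 and 26.1 CPM in Vcam1 ctrl, Vcam1 KO1 and Vcam1 KO2 cells and passed the threshold in neither clone (adjusted p = 0.441 and 0.142 in edgeR). Foxl1, a forkhead gene of gut mesenchyme beyond Foxc2, was at 0.687, 0.385 and 1.12 CPM and also passed in neither clone (adjusted p = 0.133 and 0.183). Both passed between the clones. Foxl1 was lower in Vcam1 KO1 than in Vcam1 KO2, as Foxc2 was (log2 difference -1.53, adjusted p = 0.0207 in edgeR). Mthfsd was higher (0.32, adjusted p = 0.0487). Foxf2 and Foxc1 lie 175.2 kb apart on chromosome 13. Gmds, an enzyme gene of GDP-fucose synthesis next to Foxc1, rose in both clones, from 22.3 CPM to 70.5 and 52.4 CPM. Foxq1, the third forkhead gene of that cluster, named here after its values were seen, fell from 17.0 CPM to 5.65 and 4.57 CPM (adjusted p = 0.00131 and 6.03e-04 in edgeR).

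Non-coding transcripts on the opposite strand, counted apart by the strand of the reads, were low, and some moved with their factors and others did not. Fendrr, a long non-coding RNA that starts 1276 bases from Foxf1, had 0 counts in all 3 Vcam1 ctrl libraries, 21, 20 and 10 counts in Vcam1 KO1 and 17, 24 and 35 counts in Vcam1 KO2 libraries. Against a limit of 3 counts per control library this was at least 5.82-fold higher in Vcam1 KO1 and at least 9.80-fold higher in Vcam1 KO2, and both rises passed the test (adjusted p = 2.43e-04 and 1.43e-04 in edgeR). With 0 control counts, Fendrr passed the filter only through the clone libraries. Against Vcam1 ctrl it could only be called higher, so the direction of these calls follows from the filter. D030062O11Rik starts inside Tbx18 and runs out across its start, through the stretch printed above. It had 1 count in Vcam1 ctrl libraries together and 0 in those of Vcam1 KO1, and 46, 66 and 58 counts in Vcam1 KO2 libraries (adjusted p = 8.6e-05 in Vcam1 KO2), the group in which Tbx18 was high. Like Tbx18, D030062O11Rik passed the filter only through the Vcam1 KO2 libraries and could only be called higher there.

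The outermost annotated start of 1700018A04Rik lies 24 bases from Foxf2, and an exon of it lies in the printed stretch. It had 27, 15 and 7 counts in Vcam1 ctrl, 53, 57 and 49 in Vcam1 KO1 and 41, 52 and 42 in Vcam1 KO2 libraries. It rose in both clones, with log2 fold changes of 1.91 and 1.84 (adjusted p = 0.00238 and 0.00366 in edgeR), whereas Foxf2 rose in Vcam1 KO2 alone of the 2. Wt1os, which starts 19 bases from Wt1, went the other way in level and did not pass the filter, with 22, 7 and 3 counts in Vcam1 ctrl, 7, 2 and 7 in Vcam1 KO1 and 0, 1 and 2 in Vcam1 KO2 libraries. Gm20471, antisense to Prrx1, had at most 3 counts in any library and did not pass the filter either.

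**Figure D4:**
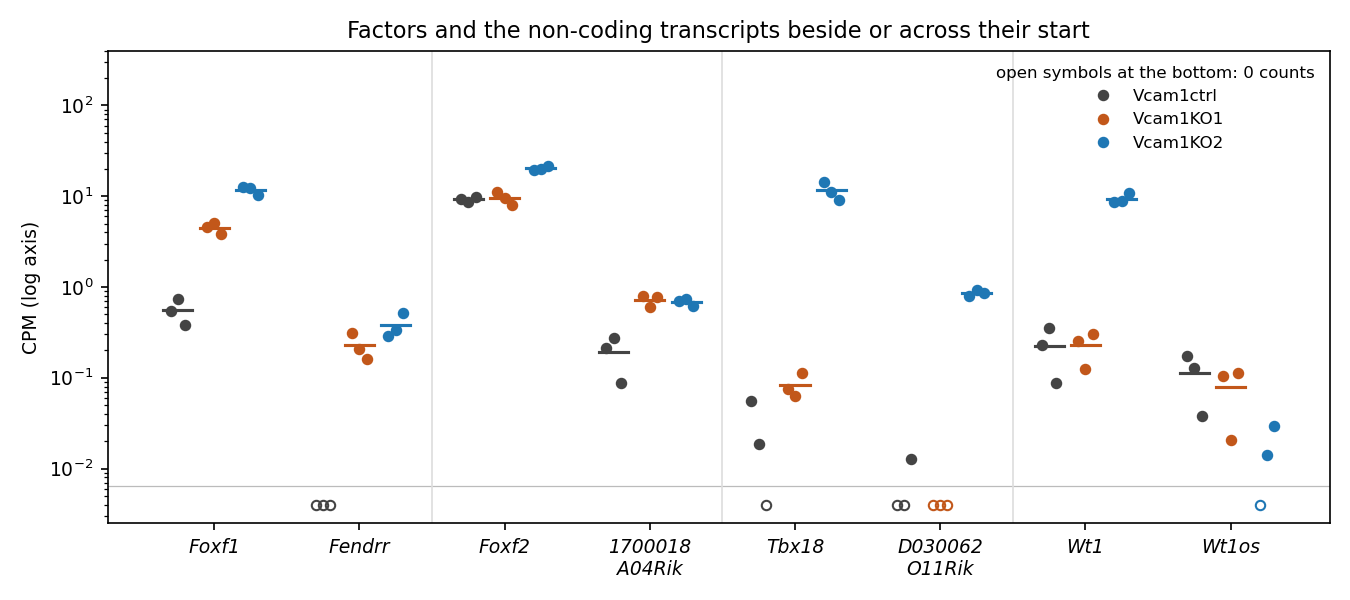
CPM on a log axis of Foxf1, Foxf2, Tbx18 and Wt1, each beside the non-coding transcript next to or across its start, 1 point per library (n = 3 per group), open symbols for 0 counts and bars at the mean where every library has counts. Fendrr had counts in clone libraries only, and D030062O11Rik stood at 0.860 CPM in Vcam1 KO2 cells, where Tbx18 was at 11.6 CPM.

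The relatives of these factors rose and fell. Among 39 other forkhead genes 24 were tested, of which 5 rose and 8 fell in Vcam1 KO1 and 4 rose and 9 fell in Vcam1 KO2. Over all tested genes 29.9% rose and 30.0% fell in Vcam1 KO1 and 25.3% rose and 26.1% fell in Vcam1 KO2, and these shares are the background for the lists that follow. In these lists, genes near the limit of detection in the controls or in the clones passed the filter only through the libraries where they were high. The direction of such a call follows from the filter. Foxa2, a factor of liver and gut epithelium, fell from 57.3 CPM to 0.0836 and 2.27 CPM, while Foxa1 rose from 0.620 CPM to 9.55 and 12.4 CPM, and Foxo3, which acts under insulin signalling, rose from 55.1 to 97.7 and 92.3 CPM. Foxp4, Foxk2 and Foxk1, the others with the highest counts, stood at 107, 96.1 and 59.6 CPM in Vcam1 ctrl cells, and of these Foxk1 passed the threshold in Vcam1 KO1 (98.4 CPM, adjusted p = 0.0033 in edgeR).

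Of 16 other T-box genes 7 were tested, with 3 higher and 2 lower in each clone. Tbx1, Tbx2 and Tbx3 passed the filter only through the clone libraries and could only be called higher than Vcam1 ctrl. Eomes passed only through the Vcam1 ctrl libraries and could only be called lower. Tbx1 rose from 0.0236 CPM to 3.08 and 4.48 CPM, Tbx2 from 0.0724 to 7.17 and 2.76 CPM and Tbx3 from 0.145 to 0.791 and 6.65 CPM, while Eomes fell from 8.84 to 0.128 and 0.0417 CPM and Mga from 61.2 to 32.8 and 36.8 CPM. For Vcam1 KO1 against Vcam1 KO2 the log2 difference was -3.07 for Tbx3 (adjusted p = 2.32e-04 in edgeR), lower in Vcam1 KO1 as Tbx18 was, and 1.38 for Tbx2 (adjusted p = 0.0489), higher in Vcam1 KO1.

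Among 20 other paired-like homeobox genes 4 were tested, with 2 higher and 2 lower in Vcam1 KO1 and 1 higher and 2 lower in Vcam1 KO2. Shox2, a limb skeleton factor, rose from 0.831 to 7.33 and 7.93 CPM, while Alx4 fell from 0.704 to 0.0542 and 0.268 CPM. Otx1, at 2.96, 4.46 and 3.05 CPM, passed in Vcam1 KO1 alone (adjusted p = 0.0453 in edgeR).

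Of 9 class II basic helix-loop-helix relatives of Tcf21, 3 were tested, with 0 higher and 3 lower in Vcam1 KO1 and 1 higher and 2 lower in Vcam1 KO2. Tcf24 fell from 34.5 CPM to 0.112 and 0.00493 CPM and Tcf23 from 3.27 CPM to 0.00847 and 0 CPM. Both passed the filter only through the Vcam1 ctrl libraries and could only be called lower. Scx, the tendon factor, went from 7.84 CPM to 5.21 CPM in Vcam1 KO1, a fall, and to 24.9 CPM in Vcam1 KO2, a rise (adjusted p = 0.0177 and 5.5e-05 in edgeR). The EGR zinc finger genes nearest to Wt1 in family, Egr1, Egr2 and Egr3, varied widely between libraries and 0 of 3 passed in either clone in edgeR, also at an unadjusted p under 0.05. Egr1 was at 744 ± 346, 794 ± 841 and 255 ± 193 CPM (SD, n = 3 each).

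**Figure D5:**
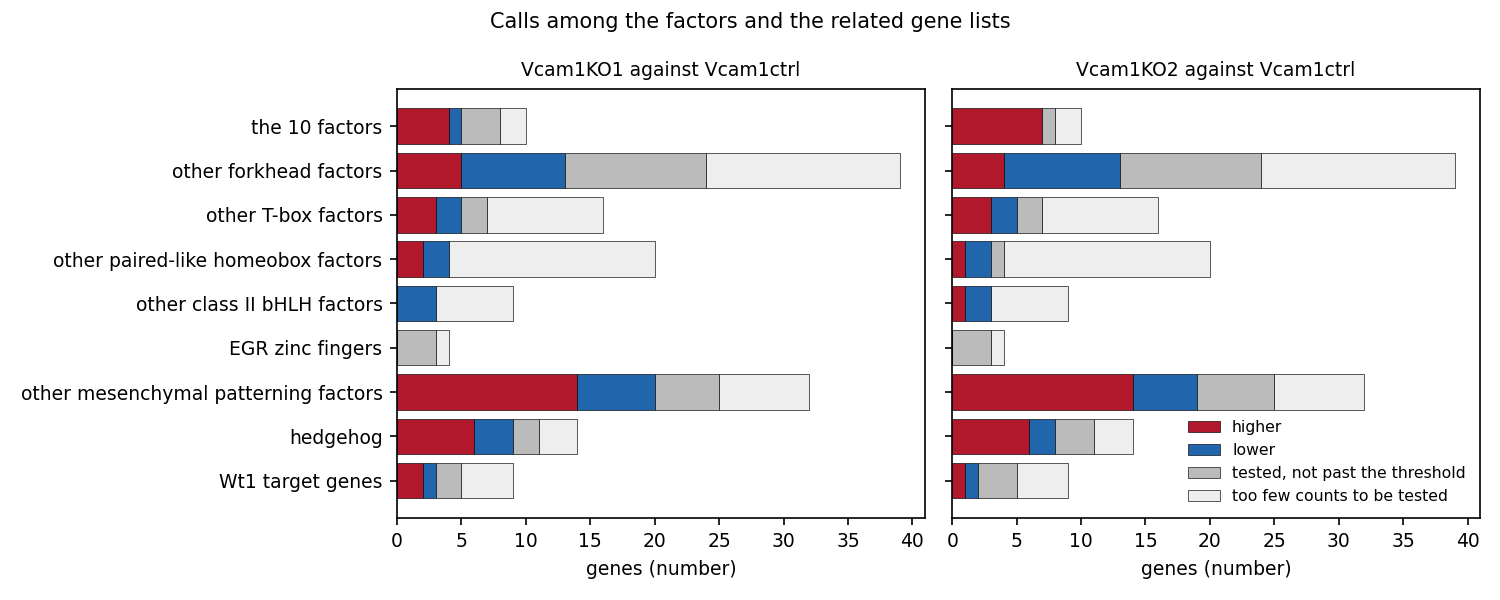
Number of genes higher, lower, tested but not past the threshold, or with too few counts to be tested, in Vcam1 KO1 and Vcam1 KO2 against the same Vcam1 ctrl libraries (edgeR, adjusted p under 0.05). The 10 factors show 4 higher and 1 lower in Vcam1 KO1 and 7 higher in Vcam1 KO2, and the other forkhead genes show 5 higher and 8 lower in Vcam1 KO1 and 4 higher and 9 lower in Vcam1 KO2.

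Other factors that pattern mesenchyme also changed in both directions. Of 32 such genes 25 were tested, with 14 higher and 6 lower in Vcam1 KO1 and 14 higher and 5 lower in Vcam1 KO2 (background percentages as above). Ebf1, a factor of stromal and B cells, rose from 3.56 CPM to 205 and 47.4 CPM, and Runx2, the bone factor, from 22.3 to 65.9 and 50.2 CPM. Eya1 rose from 0.0462 to 5.02 and 7.28 CPM and Osr2 from 0.389 to 18.1 and 7.96 CPM. Eya2 fell in Vcam1 KO1, from 66.7 to 6.64 CPM, and stood at 46.5 CPM in Vcam1 KO2 (adjusted p = 0.127 in edgeR), and Gata4, at 23.8, 30.6 and 27.5 CPM, passed in Vcam1 KO1 alone (adjusted p = 0.0226).

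Hedgehog genes were read because Foxf1 and Foxf2 are known targets of this pathway in gut mesenchyme. Of 14 genes 11 were tested, with 6 higher and 3 lower in Vcam1 KO1 and 6 higher and 2 lower in Vcam1 KO2. Dhh, a ligand, fell from 8.77 CPM to 0.0598 and 0.00943 CPM. The coreceptors rose, Gas1 from 24.7 to 310 and 266 CPM, Cdon from 25.6 to 82.6 and 120 CPM and Boc from 0.679 to 28.3 and 14.2 CPM, and Smo, the signal transducer, rose from 86.1 to 278 and 214 CPM. Sufu, an inhibitor, was at 65.9, 86.2 and 64.0 CPM and passed in Vcam1 KO1 alone (adjusted p = 0.0246 in edgeR).

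Ptch1, Gli1 and Hhip, the usual readouts of active hedgehog signalling, are named here after their values were seen. Ptch1 was at 29.1, 23.6 and 28.2 CPM and passed the threshold in neither clone (adjusted p = 0.136 and 0.841 in edgeR). Gli1 was at 0.437, 0.369 and 0.081 CPM and fell in Vcam1 KO2 (adjusted p = 0.0127), while the value in Vcam1 KO1 did not pass (adjusted p = 0.741). Hhip had 5.91 ± 5.07 CPM in Vcam1 ctrl cells, 0 counts in the Vcam1 KO1 libraries and 11.02 ± 0.59 CPM in Vcam1 KO2 cells (SD, n = 3 each). Hhip fell in Vcam1 KO1 (adjusted p = 1.53e-04 in edgeR), while the log2 fold change of 0.90 in Vcam1 KO2 did not pass (adjusted p = 0.23).

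Genes known as Wt1 targets did not move as a group. Of 9 genes 5 were tested, with 2 higher and 1 lower in Vcam1 KO1 and 1 higher and 1 lower in Vcam1 KO2. Podxl, the podocyte surface sialomucin, fell from 149 CPM to 0.545 and 8.08 CPM, and was higher in Vcam1 KO2 than in Vcam1 KO1 (log2 difference -3.89 for Vcam1 KO1 against Vcam1 KO2, adjusted p = 4.79e-05 in edgeR). Lhx9 rose from 0.254 to 1.95 and 0.775 CPM, and was lower in Vcam1 KO2 than in Vcam1 KO1 (log2 difference 1.33, adjusted p = 0.0203 in edgeR). The other 3 tested genes of the list did not pass between the clones. Pax2 was at 89.8, 155 and 134 CPM and passed in Vcam1 KO1 (adjusted p = 0.0122) but not in Vcam1 KO2 (adjusted p = 0.0552), and Spry1 was at 20.9, 22.5 and 32.6 CPM and passed in neither.

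Markers of the cell types in which these factors are usually found gave differing pictures, and in bulk RNA fewer cells of a type and less RNA per cell cannot be told apart. Of 12 fibroblast markers 10 were tested, with 6 higher and 1 lower in Vcam1 KO1 and 8 higher and 0 lower in Vcam1 KO2, and the summed level was 499 to 961 CPM in Vcam1 ctrl, 10882 to 13305 CPM in Vcam1 KO1 and 6823 to 8118 CPM in Vcam1 KO2 libraries. Col1a1, the largest part of the sum in both clones, was at 99.4, 8530.3 and 4735 CPM, and Pdgfrb at 29.4, 659 and 386 CPM. Dcn and Fap are named here after their values were seen. Dcn fell in Vcam1 KO1, from 74.6 to 4.34 CPM (adjusted p = 2.22e-04 in edgeR). In Vcam1 KO2 it stood at 92.0 CPM and did not pass (adjusted p = 0.645). Fap passed in neither clone (adjusted p = 0.988 and 0.632). Whether these genes and the factors were read from the same cells was not tested. Of 11 mesothelial markers 9 were tested and 9 fell in each clone. Msln, Upk1b, Gpm6a, Bnc1, Krt18, Krt19 and Pdpn passed the filter only through the Vcam1 ctrl libraries. These markers could only be called lower, so their part of the count follows from the filter. The summed level was 10900 to 11558 CPM in Vcam1 ctrl libraries and 0.577 to 1.05 CPM in Vcam1 KO2 libraries, where Wt1 and Tbx18 were high. Krt8, Krt18 and Krt19, at 5377, 3408 and 2292 CPM in Vcam1 ctrl cells, made up most of the control sum. They are also biliary markers, so their falls are counted in both lists. Msln, the mesothelial surface protein, was at 199, 0.0581 and 0.0807 CPM.

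Of 10 hepatic stellate cell markers 6 were tested, with 3 higher and 2 lower in Vcam1 KO1 and 3 higher and 1 lower in Vcam1 KO2. Lrat and Hand2, which define these cells, were at or under 3 counts in all 9 libraries. The summed level was 12.5 to 18.0 CPM in Vcam1 ctrl, 24.96 to 35.4 CPM in Vcam1 KO1 and 23.7 to 27.8 CPM in Vcam1 KO2 libraries. Lhx2, a stellate cell factor, rose from 3.57 to 16.5 and 12.0 CPM and Rgs5 from 0.382 to 3.02 and 1.16 CPM. Hgf fell in Vcam1 KO1, from 3.28 to 0.491 CPM, and did not pass in Vcam1 KO2 (adjusted p = 0.119 in edgeR). Des passed in neither clone. Ngfr and Gfap are named here after their values were seen. Ngfr fell from 1.63 to 0.0384 and 0.207 CPM, and Gfap rose from 0.0718 to 1.17 and 0.237 CPM. Smooth muscle markers summed to 4.97 to 8.77, 27.2 to 83.5 and 16.9 to 19.2 CPM, with 3 of 4 tested higher in Vcam1 KO1 and 2 of 4 in Vcam1 KO2. Endothelial markers (1 higher and 2 lower of 4 in Vcam1 KO1, 1 higher and 0 lower in Vcam1 KO2) and haematopoietic markers (1 higher and 2 lower of 4 in Vcam1 KO1, 0 higher and 2 lower in Vcam1 KO2) came to at most 102 and 21.0 CPM in sum in any library, and Cd3e and Tyrobp were at or under 3 counts throughout. Of 5 tested hepatocyte markers 4 fell in Vcam1 KO1 and 5 in Vcam1 KO2. Hnf4a, Ttr, Serpina1a and Apoa1 among them passed the filter only through the Vcam1 ctrl libraries and could only be called lower.

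The gene most like each factor was found by Pearson's r of log2 CPM over the 9 libraries, among 13087 genes with a mean of at least 1 CPM, as a description, since all genes share the same 3 groups of libraries. It was Gm10561 for Prrx1 (r = 0.9975), L3mbtl3 for Prrx2 (0.9956), Omd for Foxc1 (0.9972), Lhfp for Foxf1 (0.9972) and Oasl2 for Foxf2 (0.9932). For Foxc2 it was Il2rg (0.9877), at 8.24, 0.140 and 6.05 CPM in Vcam1 ctrl, Vcam1 KO1 and Vcam1 KO2 cells. For Tbx18 it was Slco1a5 (0.9938), at 3.38, 4.74 and 104 CPM, and for Wt1 it was Iqcb1 (0.9927), at 7.84, 8.26 and 13.9 CPM. Between 72 genes for Wt1 and 764 genes for Foxc1 had an r above 0.95, so that no gene stood alone beside its factor.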

How the data were processed

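RNA of PPTR cells (Vcam1 ctrl, Vcam1 KO1 and Vcam1 KO2, 3 libraries each) was made by the authors into stranded, paired-end mRNA libraries and quantified with kallisto 0.46.1 on mouse transcripts of mm10, the build of GRCm38. The deposited values are estimated counts per gene symbol without normalization, and all were whole numbers. 0 columns were left out and 0 rows lacked a gene name. Groups were taken from the labels, which do not say which library came from which passage.

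Counts were scaled with TMM, filtered with filterByExpr and tested with edgeR 4.0.16 (R 4.3.3) quasi-likelihood fits, with 2 groups for both clones against Vcam1 ctrl and 3 groups for the comparisons of single clones. Paralog ratios used a pseudocount of 0.5 counts and log2 CPM a prior count of 2. Depth limits a gene with fewer than 3 counts, and intervals cover counting error only. Alternatives were limma-voom (limma 3.58.1), DESeq2 1.42.0, other scaling and filters, omission of single libraries, averaged clone contrasts and fits on 6 libraries. The fit was tested on simulated data. The 10 factors and all gene lists were chosen with earlier results of these data known.

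From each list the text names up to 4 genes with the highest mean CPM and up to 2 with the largest fold change past the threshold at a mean of at least 1 CPM. Positions are from GENCODE vM21, another release than the one used for the counts. Promoter sequences are from RefSeq. A comparison of paralog proteins was not run. Some items covered by these rules are not reported here. Figures were drawn with matplotlib 3.10.9.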

Additional observations from a re-analysis of the deposited data

Results flagged for a closer look

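The clones differed, by the test of the difference itself, in 6 of the 8 tested factors, and each was lower in Vcam1 KO1 than in Vcam1 KO2 cells. The log2 differences were -0.97 for Prrx2, -7.38 for Foxc2, -1.38 for Foxf1, -1.09 for Foxf2, -7.13 for Tbx18 and -5.39 for Wt1 (adjusted p between 1.72e-05 and 0.00283 in edgeR). The value of Foxc2 rests on 2 counts in Vcam1 KO1, and Tbx18 passed the filter only through the Vcam1 KO2 libraries.

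Foxc1 in Vcam1 KO2 replicate 3 lay far from the other 5 clone libraries, at a log2 CPM of 4.96. These libraries come from both clones, whose mean levels of Foxc1 were 70.7 and 47.6 CPM. Such a gap arises by chance in about 1 in 20 groups, and 8 factors were examined.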

How the results depend on the processing

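Of 511 values recomputed for the factors under the alternatives, 477 kept their direction and their side of the threshold, 5 lost the call, 12 gained it and 17 changed sign. The number of factors past the threshold was 5 in the pooled comparison and 8 (7 higher and 1 lower) when the 2 clones' contrasts were averaged, which sets the spread between clones aside by construction, and it ranged from 4 to 6 without single libraries. It was 5 to 6 in Vcam1 KO1, 7 in Vcam1 KO2 and 6 to 7 between the clones under all alternatives. Sign changes were confined to 3 differences near 0 that passed no threshold. Foxf2 in Vcam1 KO1 was -0.0091 with DESeq2, -0.0084 with its size factors in edgeR, -0.022 without a filter and between -0.14 and 0.16 without single libraries. Wt1 in Vcam1 KO1 was -0.012, -0.011 and -0.029 in the same order, -0.0050 on 6 libraries alone and between -0.36 and 0.35 without single libraries. Prrx1 between the clones lay between -0.055 and 0.14 without single libraries. In the pooled comparison the call of Tbx18 changed as given above, and Wt1 passed, beside the settings given above, with DESeq2 (4.41, adjusted p = 8.29e-04) and with averaged contrasts (2.73, adjusted p = 4.03e-04). Foxc2 (-4.41, adjusted p = 7.76e-05) and Foxf2 (0.58, adjusted p = 0.00423) also passed with averaged contrasts. Foxc1 between the clones also passed with upper-quartile scaling (adjusted p = 0.0325) and a filter at 1 CPM (0.0473). The cause was not tested. Depth limits Foxd1 and Tcf21, for which no adjusted p was under 0.35 without a filter. No paired analysis was possible because the labels give no replicate numbers.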

Other observations

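Some protein-coding genes beside other factors also differed between groups and others did not. Over all tested genes 29.9% rose and 30.0% fell in Vcam1 KO1, and 25.3% rose and 26.1% fell in Vcam1 KO2. Rcn1, a calcium-binding protein of the secretory pathway 212.7 kb from Wt1, rose from 51.1 CPM in Vcam1 ctrl to 146 and 159 CPM in Vcam1 KO1 and Vcam1 KO2 cells, where Wt1 rose in Vcam1 KO2 alone of the 2. Eya4, a transcriptional coactivator 282.8 kb from the silent Tcf21, rose from 0.0433 CPM to 77.5 and 19.3 CPM. Ptges, a prostaglandin E synthase 8.22 kb from Prrx2, fell in both clones, from 8.56 to 0.405 and 4.78 CPM, while Prrx2 rose. Gorab, 71.2 kb from Prrx1, rose from 14.0 to 18.5 and 22.9 CPM. Asb6, 4.639 kb from Prrx2, was at 32.1, 31.2 and 49.7 CPM and did not pass in Vcam1 KO1 (adjusted p = 0.843 in edgeR), but did in Vcam1 KO2 (0.0113). Ccdc73, 108.6 kb from Wt1, was at 0.598, 1.34 and 0.769 CPM. It passed in Vcam1 KO1 (adjusted p = 0.0059 in edgeR) but not in Vcam1 KO2 (0.323).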
